A study of Mus musculus with 5 samples.

Results

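Genes of the antioxidant, glutathione and NRF2 response were examined in whole retinas of mice 7 days after optic nerve crush, with and without the aldose reductase inhibitor Sorbinil. The 42 genes were taken by symbol from a written list, and all 42 were present among the 25655 gene symbols of the count table. All 42 also passed the low-count filter, with between 21 and 34790 reads for a member in a retina. The retinas came from wildtype C57BL/6 mice, aged 8 to 10 weeks in the study's methods, whose left optic nerve was pinched. In 3 mice the crush was accompanied by DMSO, the vehicle, and in 2 mice by 10 mg/kg Sorbinil, each given into the peritoneal cavity before the crush and then daily. The groups therefore share the crush and the injections, and no uninjured retina was analysed here. The Sorbinil retinas carry the replicate numbers 1 and 3. A further Sorbinil replicate was left out by the study after a principal component analysis and was not analysed here.

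NRF2, encoded by Nfe2l2, is a transcription factor that KEAP1 holds in the cytoplasm and hands over to the proteasome. Oxidants and electrophiles modify cysteines of KEAP1, and NRF2 that escapes degradation pairs with small MAF proteins on antioxidant response elements of genes for glutathione synthesis, thioredoxin recycling, detoxification and iron storage. NRF2 activity is set largely by protein stability, so an Nfe2l2 transcript level does not measure it. In the retina, Müller glia hold much of the glutathione and photoreceptors carry membranes rich in oxidisable lipids. Aldose reductase uses NADPH, the same electron donor that glutathione reductase and thioredoxin reductase need, which makes these genes a natural set to read beside an aldose reductase inhibitor.

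The antioxidant response element was searched as the letters TGACNNNGC on either strand, in the window from 250 bases before to 50 bases after each canonical transcript start (genome build GRCm39, GENCODE release 39). The letters occurred in 8 of the 42 members (19.0%) and in 2524 of 19635 protein-coding genes of the count table (12.9%). The 8 members were Gclm, Prdx1, Prdx6, Txnrd1, Srxn1, Sod1, Mt2 and Gstm5, and in 6 of them the match lay upstream of the start. Stretches of 4 upstream matches are shown because these genes recur in the results below. Each runs 5′ to 3′ on the gene's own strand with the matching letters in capitals. They lie at chr3:122039052-122039100 (plus strand, Gclm), chr4:116542643-116542691 (plus strand, Prdx1), chr1:161079133-161079181 (minus strand, Prdx6) and chr3:107803108-107803136 (plus strand, Gstm5).
Gclm: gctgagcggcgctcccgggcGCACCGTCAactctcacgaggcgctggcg
Prdx1: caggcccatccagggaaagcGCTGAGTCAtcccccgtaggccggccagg
Prdx6: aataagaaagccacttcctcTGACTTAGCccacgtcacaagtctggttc
Gstm5: tgcgcctgcgcaccgcccacTGACCACGC
In Gclm and Prdx1 the letters read on the opposite strand, so that they appear reversed and complemented, and the Gstm5 stretch ends at the base before its start. A match of letters describes the sequence only and says nothing of binding in these retinas.

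The libraries held between 56096541 and 90288552 counted reads. Sorbinil replicate 1 stood apart from the other retinas, at a score of 75.8 on a first principal component that carried 65.4% of the variance, against scores from −28.9 to −7.64 in the DMSO retinas and −20.7 in Sorbinil replicate 3. Its cell type markers also differed. The summed level of 10 Müller glia markers was 2603 CPM (read counts scaled to library size) in Sorbinil replicate 1, 7067 in Sorbinil replicate 3 and 6737 to 8182 in the DMSO retinas. The summed level of 8 rod markers was 117833 CPM in Sorbinil replicate 1, 60638 in Sorbinil replicate 3 and 72008 to 84839 in the DMSO retinas. Ganglion cell markers (8 genes) summed to 72.6 and 191 CPM in the Sorbinil retinas and to 153 to 247 in the DMSO retinas. Rod, ganglion cell and Müller glia markers were thus present in every retina. In a bulk retina, fewer cells of a type and less RNA per cell cannot be told apart. CPM here are scaled by the trimmed mean of M-values (TMM). Because Sorbinil replicate 1 is 1 of only 2 treated retinas, values of both are given for most members. Where only a pooled log2 fold change is given, it does not show how the 2 retinas differed.

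At the threshold of the study (an unadjusted p up to 0.1 together with a 2-fold or larger change), edgeR's quasi-likelihood test called none of the 42 members lower and none higher with Sorbinil, where 1.35% of all 14992 genes tested were called lower and 0.36% higher. One member, Gstm5, had an unadjusted p under 0.05, which is 2.38% of the members against 5.01% of all genes. With the fold limit dropped, 5 members (11.9%) had p of at most 0.1, namely Gstm5, Prdx6, Gpx3, Prdx4 and Sod1, against 11.3% of all genes. No member passed an adjusted p of 0.05 (Benjamini-Hochberg over all genes, lowest member value 0.758), and neither did any other gene (0% of those tested). An exact two-sided permutation test cannot go below p = 0.1 with 2 retinas against 3, so single-gene values below rest on the fit across all genes.

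Most members nevertheless sat slightly below the DMSO level. The fitted log2 fold change (Sorbinil against DMSO) was negative for 34 of 42 members (81%) and for 51% of all genes tested. Its median was −0.15 over the members and −0.01 over all genes, and the members ranged from −0.73 (Gpx3) to 0.27 (Hmox1). In 11 members (26.2%) both Sorbinil retinas lay below every DMSO retina, against 10.5% of all genes. In 1 member (2.38%), Hmox1, both lay above every DMSO retina, against 12.8% of all genes, and with library size scaling none did. The members were chosen with earlier results known and share libraries, so these shares carry no p. The 95% interval of the change lay within a 2-fold change in either direction for 27 members (64.3%), against 62.6% of all genes, so that a 2-fold change lay outside the interval for those 27 and inside it for 15.

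**Figure D1:**
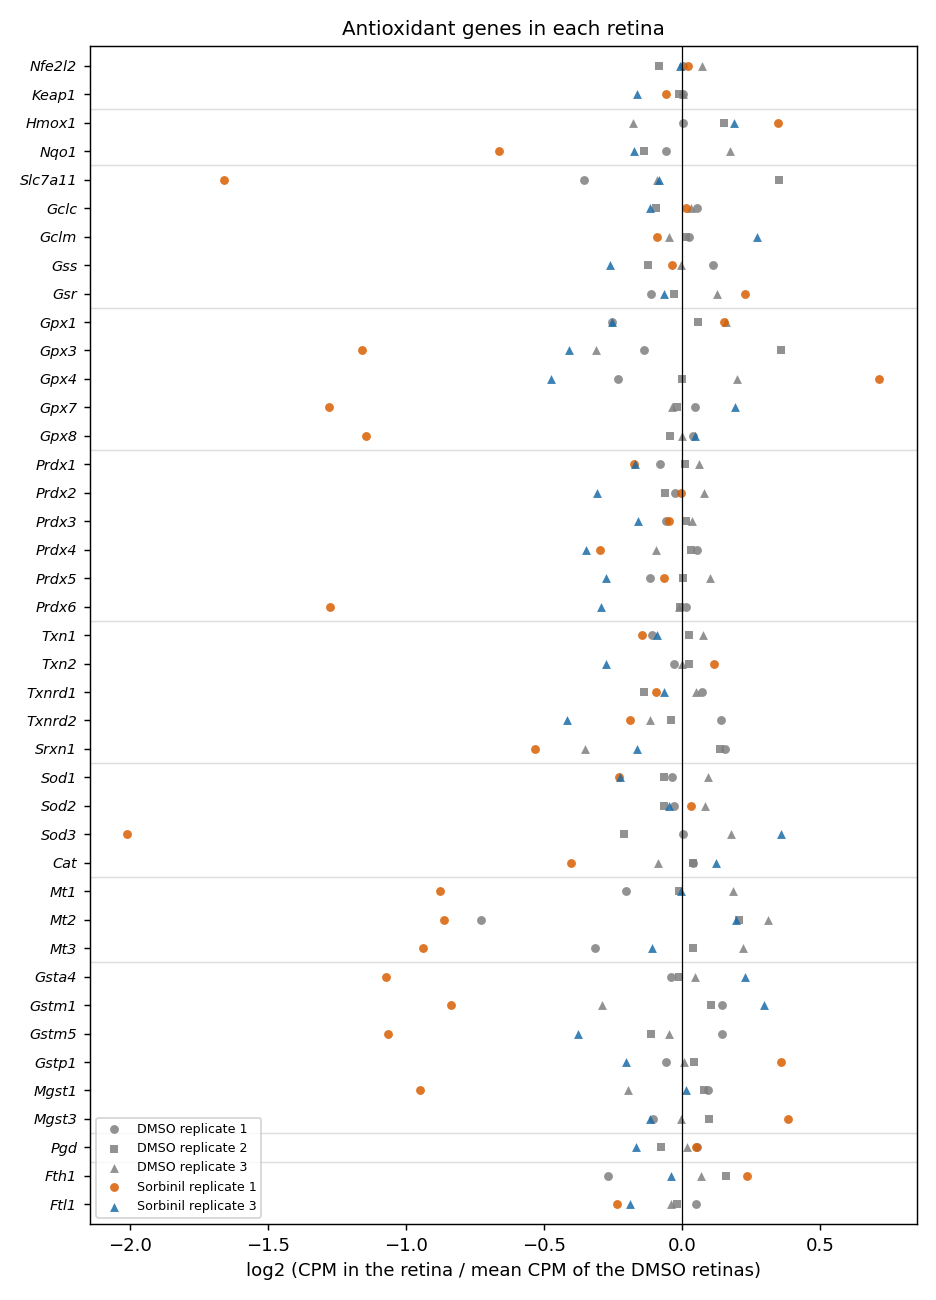
Each of 41 genes is a row, grouped by role, and each point is the log2 ratio of its CPM in 1 retina to the mean of the DMSO retinas. Apart from an Mt2 value the DMSO points crowd around 0, the points of Sorbinil replicate 1 reach below −1 for 8 genes, and those of Sorbinil replicate 3 stay within 0.5 of 0.

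**Figure D2:**
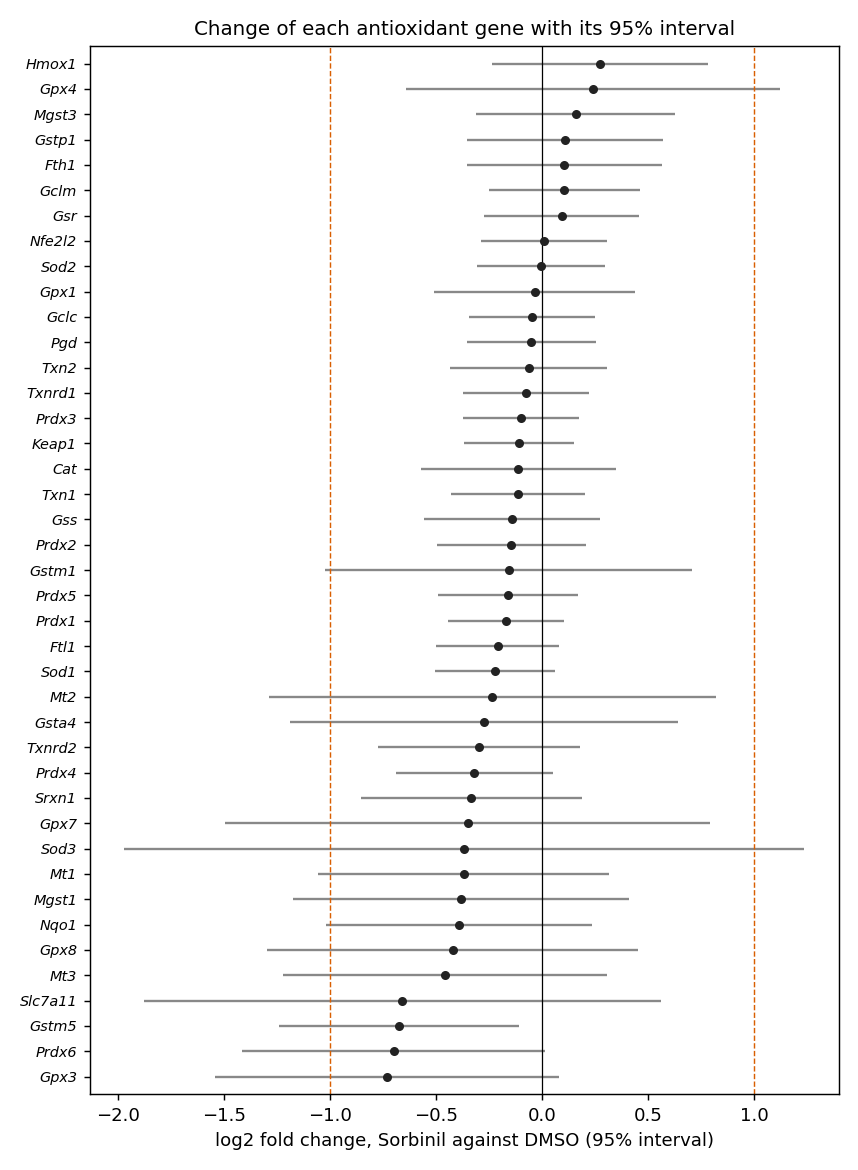
Fitted log2 fold change of 41 genes (Sorbinil against DMSO, edgeR) with its 95% interval, ordered by size, with lines at a 2-fold change. The Gstm5 interval, from −1.24 to −0.11, is the only one that leaves out 0, and 26 of the 41 intervals lie inside the 2-fold lines.

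The transcript of NRF2 itself was at nearly the same mean level in both groups, 24.4 ± 1.3 CPM (SD over 3 retinas) under vehicle and 24.6 ± 0.356 CPM (SD over 2) under Sorbinil. Nfe2l2 (chromosome 2, 75504739 to 75534985, minus strand) measured 24.5, 23.1 and 25.7 CPM in the DMSO retinas and 24.8 and 24.3 CPM in the Sorbinil retinas. The groups overlapped, with a log2 fold change of 0.01 (SE 0.12, adjusted p = 0.982). Its 95% interval reached from −0.29 to 0.30, and the sign turned to −0.094 with library size scaling and to −0.030 without DMSO replicate 2. Keap1 (chromosome 9, 21141026 to 21150679, minus strand), the adaptor that presents NRF2 for ubiquitination, measured 51.7, 51.2 and 51.7 CPM with DMSO and 49.5 and 46.0 CPM with Sorbinil. Both Sorbinil retinas were below all DMSO retinas, by a log2 fold change of −0.11 (SE 0.10, adjusted p = 0.762).

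Heme oxygenase 1 and the quinone reductase NQO1 are textbook NRF2 targets, and neither transcript had p under 0.05. Hmox1 (chromosome 8, 75820241 to 75827217, plus strand) had 3.90, 4.32 and 3.44 CPM with DMSO and 4.95 and 4.43 CPM with Sorbinil, from 191 to 377 reads a retina. Every Sorbinil value was above every DMSO value, although the lower Sorbinil value exceeded the highest DMSO value by little (log2 fold change 0.27, SE 0.21, unadjusted p = 0.238, adjusted p = 0.758). Nqo1 (chromosome 8, 108113835 to 108129934, minus strand) had 3.53, 3.34 and 4.14 CPM with DMSO and 2.32 and 3.26 CPM with Sorbinil. Here both Sorbinil retinas were the lowest, replicate 3 only just (log2 fold change −0.39, SE 0.25, unadjusted p = 0.175). Both transcripts were scarce beside most other members.

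Glutathione is made from imported cystine by glutamate-cysteine ligase (a catalytic subunit, Gclc, and a modifier subunit, Gclm) and glutathione synthetase (Gss), and glutathione reductase (Gsr) recycles it. Slc7a11 (chromosome 3, 49846975 to 50398070, minus strand), the cystine carrier of system xc-, measured 4.98, 8.13 and 5.99 CPM with DMSO and 2.02 and 6.01 CPM with Sorbinil. Sorbinil replicate 1 was the lowest of all and replicate 3 lay within the DMSO range (log2 fold change −0.66, SE 0.49, unadjusted p = 0.230). Gclm (chromosome 3, 122039126 to 122065061, plus strand), whose promoter stretch is printed above, measured 35.6, 35.4 and 33.9 CPM with DMSO and 32.9 and 42.2 CPM with Sorbinil. The Sorbinil values lay on either side of the DMSO range (log2 fold change 0.10, SE 0.14, adjusted p = 0.811). Gclc, Gss and Gsr differed by −0.05, −0.14 and 0.09 on the log2 scale, with unadjusted p from 0.430 to 0.698. Against the DMSO mean they stood at 0.01, −0.03 and 0.23 in Sorbinil replicate 1. In Sorbinil replicate 3 they stood at −0.12, −0.26 and −0.06. None of these 5 genes had p under 0.05.

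Many glutathione peroxidases, though not all, reduce peroxides with glutathione, GPX4 doing so for lipid hydroperoxides in membranes and GPX3 outside the cell. Gpx3 (chromosome 11, 54793279 to 54802424, plus strand) had the lowest log2 fold change of the 42 genes, −0.73 (SE 0.33, 95% interval −1.54 to 0.08, unadjusted p = 0.0687, adjusted p = 0.758). It measured 6.68, 9.43 and 5.92 CPM with DMSO and 3.29 and 5.54 CPM with Sorbinil, both Sorbinil retinas being below all DMSO retinas. Its exons overlap those of Tnip1 on the other strand. Gpx4 (chromosome 10, 79883000 to 79892273, plus strand) measured 343.8, 403.4 and 463 CPM with DMSO and 661.9 and 290.3 CPM with Sorbinil, so that the Sorbinil retinas were the highest and the lowest of the 5. The mean of 476 CPM ± 263 (SD) thus described neither Sorbinil retina, and the log2 fold change of 0.24 (SE 0.36) had an adjusted p of 0.821. Without Sorbinil replicate 1 it was −0.46, and without Sorbinil replicate 3 it was 0.72. The rod markers were ordered in the same way over the 5 retinas, from Sorbinil replicate 3 as the lowest through DMSO replicates 1, 2 and 3 to Sorbinil replicate 1 as the highest, and their part in the Gpx4 values was not tested. Gpx4 has 3 near-identical gene copies that the counting could have split reads with. Gpx1, the cytosolic enzyme, differed by −0.04 (unadjusted p = 0.860). Against the DMSO mean it stood at 0.15 in Sorbinil replicate 1 and −0.25 in replicate 3 on the log2 scale. Gpx7 and Gpx8, peroxidases of the endoplasmic reticulum, were lower in Sorbinil replicate 1, by 1.28 and 1.14 on the log2 scale, while replicate 3 differed by 0.19 and 0.05.

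Peroxiredoxins reduce hydrogen peroxide through a reactive cysteine, which thioredoxin restores in most of them. All 6 measured members had a negative log2 fold change, with a median of −0.17, and none passed p under 0.05. Prdx6 (chromosome 1, 161051417 to 161079098, minus strand), the member that uses a single reactive cysteine and also acts on phospholipids, measured 163.4, 161.1 and 160.5 CPM in the DMSO retinas. It measured 66.9 and 131.9 CPM in the Sorbinil retinas, both well outside the narrow DMSO spread of 161.7 CPM ± 1.52 (SD). Its log2 fold change was −0.70 (SE 0.29, 95% interval −1.42 to 0.01, unadjusted p = 0.053, adjusted p = 0.758). The Sorbinil retinas differed from each other more than replicate 3 did from DMSO, being 1.27 and 0.29 lower on the log2 scale. Prdx4, the peroxiredoxin of the endoplasmic reticulum, had alike Sorbinil values of 8.58 and 8.29 CPM against 11, 10.8 and 9.88 CPM with DMSO (log2 fold change −0.32, SE 0.15, unadjusted p = 0.0778). Prdx1, with its match of letters shown above, had 77.8 and 77.9 CPM against 83.1, 88.4 and 91.6 CPM (−0.17, SE 0.11, unadjusted p = 0.174). In Prdx4 and Prdx1 the Sorbinil retinas nearly coincided. Prdx2 (chromosome 8, 85693354 to 85702350, plus strand), the most abundant of the family, measured 174.7, 170.2 and 187.7 CPM with DMSO and 177.1 and 143.5 CPM with Sorbinil, only replicate 3 lying below the DMSO range (−0.15, SE 0.14, adjusted p = 0.762). The mitochondrial Prdx3 and the widely distributed Prdx5 differed by −0.10 and −0.16.

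All 5 members of the thioredoxin system had a negative log2 fold change, with a median of −0.12, and none had p under 0.05. Txn2 (chromosome 15, 77799247 to 77818565, minus strand), the mitochondrial thioredoxin, measured 99.4, 103.1 and 101.2 CPM with DMSO and 109.8 and 83.7 CPM with Sorbinil, again 1 above and 1 below the DMSO range (log2 fold change −0.07, SE 0.15, adjusted p = 0.883). Srxn1 (chromosome 2, 151947436 to 151957687, plus strand), sulfiredoxin, which repairs overoxidised peroxiredoxins and holds a match of the element just after its start, measured 72.5, 71.5 and 50.9 CPM with DMSO. With Sorbinil it measured 44.9 and 58.1 CPM, and the groups overlapped through DMSO replicate 3 (−0.33, SE 0.21, unadjusted p = 0.165). Txn1, Txnrd1 and Txnrd2 (cytosolic thioredoxin and the cytosolic and mitochondrial reductases) differed by −0.12, −0.08 and −0.30, with unadjusted p from 0.172 to 0.539. Of these only Txnrd2, at 5.38 and 4.60 CPM against 6.77, 5.97 and 5.67 CPM, had no overlap between the groups.

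Superoxide dismutases turn superoxide into hydrogen peroxide, which catalase then splits. Sod1, the cytosolic copper-zinc enzyme, measured 103.3, 101.3 and 113 CPM with DMSO and 90.4 and 90.7 CPM with Sorbinil. The Sorbinil retinas nearly coincided below the DMSO range (log2 fold change −0.23, SE 0.11, unadjusted p = 0.0981). Sod2 (chromosome 17, 13224095 to 13259591, plus strand), the mitochondrial manganese enzyme, measured 230.1, 224.5 and 248.8 CPM with DMSO and 240.2 and 226.9 CPM with Sorbinil. Its groups overlapped throughout, and its 95% interval ran from −0.31 to 0.30. The extracellular Sod3 was scarce, with 156, 111 and 101 reads in the DMSO retinas against 21 in Sorbinil replicate 1 and 140 in replicate 3. That is 2.01 lower and 0.36 higher than the DMSO mean on the log2 scale, the widest gap between the Sorbinil retinas among the members. Catalase (Cat) was 0.40 lower and 0.12 higher.

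Metallothioneins bind zinc and copper and are induced by metals and glucocorticoids as well as by oxidants. Mt1 (chromosome 8, 94905710 to 94906955, plus strand) measured 51.8, 59.2 and 67.9 CPM with DMSO and 32.5 and 59.6 CPM with Sorbinil (log2 fold change −0.37, SE 0.28, unadjusted p = 0.231). Sorbinil replicate 3 lay on the DMSO mean and replicate 1 below every DMSO retina. Mt2 and Mt3 were likewise lowest in Sorbinil replicate 1, 0.86 and 0.94 below the DMSO mean on the log2 scale, while replicate 3 was 0.20 above it and 0.11 below it. For Mt2 the DMSO retinas themselves spread from 15.8 to 32.4 CPM.

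Glutathione transferases couple glutathione to electrophiles. Gstm5 (chromosome 3, 107803137 to 107806005, plus strand), a mu class transferase with a match of the element's letters close to its start, was the 1 member with p under 0.05. It measured 47.7, 39.9 and 41.8 CPM in the DMSO retinas and 20.6 and 33.3 CPM in the Sorbinil retinas, with both Sorbinil values below all DMSO values. Its log2 fold change was −0.68 (SE 0.23, 95% interval −1.24 to −0.11, unadjusted p = 0.0264, adjusted p = 0.758), short of the 2-fold limit. Without Sorbinil replicate 1 it was −0.36 (unadjusted p = 0.0361), and without DMSO replicate 1 or 3 the unadjusted p was 0.0781 or 0.0644. The other mu class member, Gstm1, was at 11 CPM in Sorbinil replicate 1 and 24 in replicate 3 against 21.6, 21.1 and 16 with DMSO (−0.16, unadjusted p = 0.665). Gstp1 (chromosome 19, 4085405 to 4088068, minus strand), the pi class enzyme and the most abundant transferase here, measured 120.2, 129 and 125.6 CPM with DMSO and 160.4 and 108.6 CPM with Sorbinil. Like Gpx4, it had its highest and its lowest value in the Sorbinil retinas (0.11, SE 0.19, adjusted p = 0.847), and it has 2 near-identical copies. Mgst3 (chromosome 1, 167196550 to 167221687, minus strand), a membrane-bound transferase, measured 13.7, 15.8 and 14.7 CPM with DMSO and 19.3 and 13.6 CPM with Sorbinil, in the same arrangement (0.16, SE 0.19, adjusted p = 0.791). Without Sorbinil replicate 1, Gstp1 was at −0.19 and Mgst3 at −0.10. Gsta4, which clears the lipid aldehyde hydroxynonenal, and Mgst1 were 1.07 and 0.95 lower in Sorbinil replicate 1 and 0.23 and 0.02 higher in replicate 3.

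**Figure D3:**
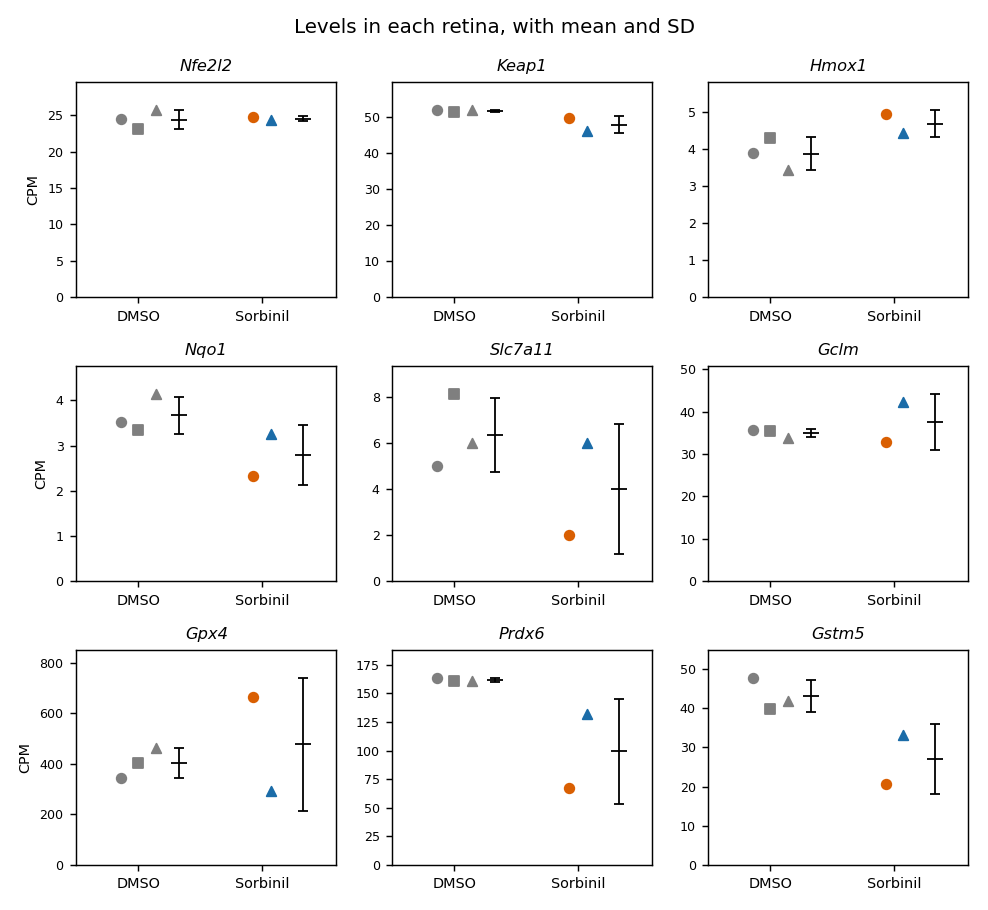
CPM of 9 genes (Nfe2l2, Keap1, Hmox1, Nqo1, Slc7a11, Gclm, Gpx4, Prdx6 and Gstm5), 1 panel each with its own axis from 0, with a point for each retina (grey for DMSO, orange for Sorbinil replicate 1, blue for Sorbinil replicate 3) and the mean and SD of each group beside the points. Nfe2l2 and Keap1 lie nearly level, the Gpx4 points under Sorbinil lie above and below all DMSO points at 661.9 and 290.3, and those of Prdx6 (66.9 and 131.9) and Gstm5 (20.6 and 33.3) lie below all DMSO points.

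PGD is a pentose phosphate enzyme that yields NADPH for these reductases. Pgd differed by −0.05 (unadjusted p = 0.684). Against the DMSO mean it stood at 0.05 in Sorbinil replicate 1 and −0.16 in replicate 3 on the log2 scale. Ferritin stores iron in a shell of heavy (Fth1) and light (Ftl1) chains. Fth1 (chromosome 19, 9957911 to 9962462, plus strand) measured 304.3, 409.2 and 383.8 CPM with DMSO and 430.6 and 355.6 CPM with Sorbinil, overlapping (0.10, SE 0.19, adjusted p = 0.850). Ftl1 measured 258.8, 246.3 and 243 CPM with DMSO and 211.8 and 219.1 CPM with Sorbinil, below the DMSO range in both (−0.21, SE 0.12, unadjusted p = 0.125), with 9 near-identical copies in the annotation. Neither chain had p under 0.05, and without Sorbinil replicate 1, without DMSO replicate 1 or with library size scaling the value of Fth1 was below 0 (−0.029, −0.012 and −0.0088).

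The Sorbinil retinas lay far apart for many members, as they did for most genes tested. Within DMSO the median coefficient of variation was 6.79%, whereas in 26 of 42 members (61.9%) the Sorbinil retinas differed from each other by more than the whole DMSO range, against 72.8% of all genes. Against the DMSO mean, 15 members (35.7%) were lower by at least 0.5 on the log2 scale in Sorbinil replicate 1 and none in replicate 3, against 30.8% and 3.96% of all genes. One member, Gpx4 (2.4%), was higher by that much in replicate 1 and none in replicate 3, against 14.1% and 4.06% of all genes. The median shift was nonetheless alike, −0.16 in replicate 1 and −0.14 in replicate 3. Both retinas were lower in 21 members and higher in 1, while 9 were lower in replicate 1 and higher in replicate 3, and 11 the reverse. The shares of all genes in these classes are not given here. Taken singly, 30 of 42 members were lower in replicate 1 and 32 in replicate 3. Over all 14992 genes tested the numbers were 7345 and 7919, values of 0 left out. The members of the secretory pathway or outside the cell (Gpx3, Gpx7, Gpx8, Prdx4 and Sod3) had a median of −1.16 in replicate 1 and 0.05 in replicate 3. The mitochondrial Sod2, Prdx3, Txn2 and Txnrd2 had medians of −0.01 and −0.22.

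**Figure D4:**
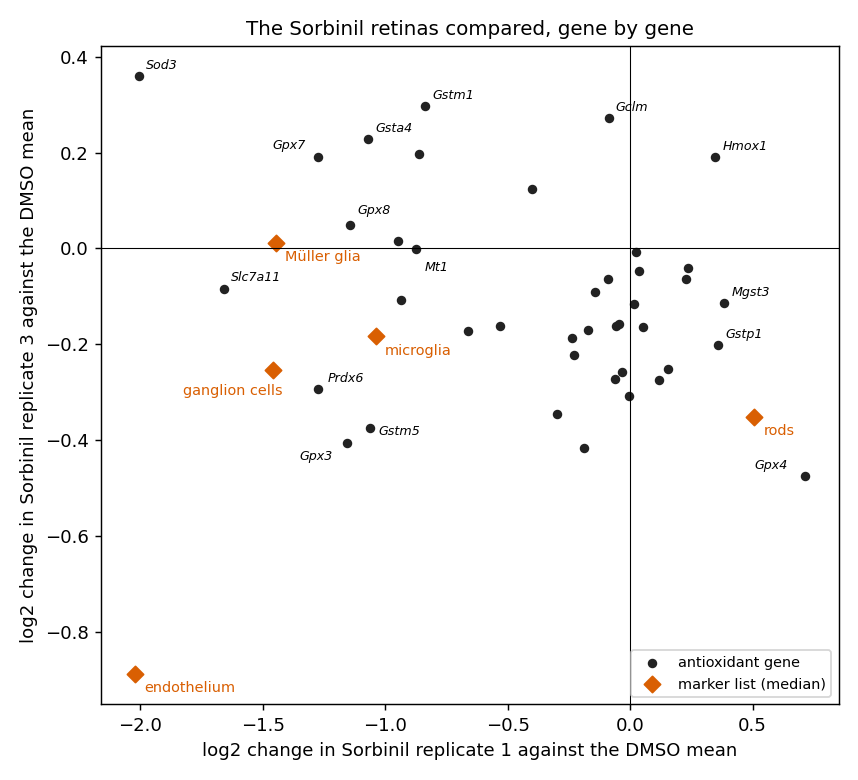
Log2 change of 41 genes against the DMSO mean in Sorbinil replicate 1 (horizontal) and Sorbinil replicate 3 (vertical), with the medians of 5 marker lists as diamonds. Prdx6, Gpx3 and Gstm5 lie in the lower left, and Sod3, Gpx7, Gpx8, Gsta4 and Gstm1 in the upper left. Gpx4 and Gstp1 lie in the lower right. The Müller glia diamond is at −1.45 and 0.01 and the rod diamond at 0.51 and −0.35. Astrocyte (−1.38 and 0.03) and pericyte (−1.53 and 0.04) medians, not drawn, would lie near the Müller glia diamond.

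Marker lists also differed between the Sorbinil retinas, though not all in the same way. Müller glia markers had a median of −1.45 in Sorbinil replicate 1 and 0.01 in replicate 3, with 10 of 10 lower in replicate 1 and 4 of 10 in replicate 3. Microglia markers (10 genes) had medians of −1.04 and −0.18, with 10 lower in replicate 1 and 9 in replicate 3. Endothelial markers (8 genes) had medians of −2.02 and −0.89, with 7 lower in each. Ganglion cell markers (8 genes) had medians of −1.46 and −0.25, with 8 lower in each. Rod markers had a median of 0.51 with 8 of 8 higher in replicate 1, and of −0.35 with 8 of 8 lower in replicate 3. None of the genes in these lists was at 0. The part of these cell types in the members' values was not tested.

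Each Sorbinil retina was also set against DMSO on its own, since the 2 differed so widely. Without Sorbinil replicate 1, 0 members were called at the threshold of the study, against 0.912% of all genes called lower. At p under 0.05 stood 6 members (14.3%), against 7.89% of all genes, and their log2 fold changes were −0.46 for Gpx4, −0.36 for Gstm5, −0.30 for Prdx2, −0.28 for Prdx6, −0.26 for Txn2 and 0.28 for Gclm. Without Sorbinil replicate 3, 8 members (19.0%) were called, all lower (Gpx3, Gpx7, Gpx8, Gsta4, Gstm5, Prdx6, Slc7a11 and Sod3), against 17.4% of all genes called lower, and 18 (42.9%) had p under 0.05 against 48.7% of all genes. In each of these fits a single Sorbinil retina was taken to vary like the DMSO retinas. Gstm5 and Prdx6 were below DMSO in both fits, which share the same DMSO retinas and so are not independent. This was not particular to Gstm5 and Prdx6, which were among 21 members lower than the DMSO mean in both Sorbinil retinas. The share of all genes in that class is not given here, so the 21 are not a result about the members. Of the members, 11 (26.2%) lay below every DMSO retina in both Sorbinil retinas, against 10.5% of all genes. Gstm5 and Prdx6 were among these 11.

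Levels of the transcripts spanned a wide range. Per kilobase of the canonical transcript, the DMSO level was highest for Gpx4 (421 CPM per kb ± 62.1, SD, n = 3) and Fth1 (394 ± 58.9), which did not differ beyond their spread. Ftl1 followed at 257 ± 8.60 and Gstp1 at 138 ± 4.87 CPM per kb. Prdx2 (82.8 ± 4.22) and Mt1 (78.3 ± 10.5) overlapped in turn. Among the scarcer transcripts were Hmox1 at 2.46, Nqo1 at 1.37 and Slc7a11 at 0.69 CPM per kb, and Sod3 was last at 0.41 ± 0.05. Whether reads in introns were counted is not stated, which bears on this order. The transcript length used bears on it too. Before that division Prdx2 (2.144 kb) stood above Gstp1 (0.904 kb) in the DMSO retinas, at 177.6 against 124.9 CPM. Exons of 24 members overlap a gene on the opposite strand, among them Gpx3, Prdx4, Prdx6, Sod1 and Gstm5, and the use of strand in counting is not stated although the libraries are labelled as stranded.

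Other genes of the pathway were listed from textbook knowledge. Of 74 genes listed, 73 were in the table and 70 were tested, and none was called at the threshold of the study. The log2 fold change was negative in 40 (57.1%, against 51% of all genes) with a median of −0.07, and 5 (7.14%, against 5.01% of all genes) had p under 0.05. Abcc4, an organic anion exporter, measured 3.62, 3.93 and 4.43 CPM with DMSO and 1.75 and 2.58 CPM with Sorbinil (log2 fold change −0.88, SE 0.27, unadjusted p = 0.0176). Selenop, selenoprotein P, which carries selenium between tissues, measured 34.8, 40.7 and 36.5 CPM with DMSO and 16.1 and 27.0 CPM with Sorbinil (−0.79, SE 0.24, unadjusted p = 0.0177). Carbonyl reductase Cbr1 measured 29.1, 26.6 and 27.1 CPM against 21.3 and 22.7 CPM (−0.32, SE 0.12, unadjusted p = 0.0382). These 3 were below every DMSO retina in both Sorbinil retinas.

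On the higher side, Bach1, a repressor that competes with NRF2 for antioxidant response elements, measured 34.6, 36.6 and 39.8 CPM with DMSO and 56.2 and 42.6 CPM with Sorbinil (log2 fold change 0.42, SE 0.16, unadjusted p = 0.0391). Trp53inp1, a p53-induced stress protein, measured 30.1, 32.9 and 31.4 CPM with DMSO and 55.9 and 36.6 CPM with Sorbinil (0.56, SE 0.20, unadjusted p = 0.0309). In both genes every Sorbinil retina was above every DMSO retina, and replicate 1 was the farther one. The adjusted p of each of these 5 genes was 0.758. Over the list, 9 genes (12.9%) had both Sorbinil retinas below every DMSO retina, against 10.5% of all genes, and 7 (10%) had both above, against 12.8%. These shares of the list are close to those of all genes. Without Sorbinil replicate 1, the log2 fold change was −0.62 for Abcc4, −0.46 for Selenop, −0.27 for Cbr1, 0.22 for Bach1 and 0.23 for Trp53inp1, with unadjusted p under 0.05 for Abcc4 (0.0306) and Selenop (0.0109).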

How the data were processed

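Total RNA of 5 whole retinas (3 DMSO, 2 Sorbinil; 100 ng input per the labels) was sequenced as reverse-stranded libraries. The authors trimmed adaptors, aligned reads to GRCm39 and deposited raw counts per gene symbol from CLC Genomics Workbench version 22. All value columns were used. From these counts, edgeR 4.0.16 (R 4.3.3, limma 3.58.1) was run on the whole table with TMM scaling, filterByExpr with a minimum count of 10 (14992 genes), glmQLFit and glmQLFTest, and p-values were adjusted by Benjamini-Hochberg over all genes tested. The fitting step was tested on simulated data. Intervals cover 95%. Each retina came from a separate mouse in the study's description. The 42 members, the other pathway genes, the marker lists and the tests were chosen with earlier results of these data known.

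Members given in full were those called or with p under 0.05, the 3 largest changes each way, Nfe2l2, Keap1, Hmox1, Nqo1, Slc7a11, Srxn1, Gclm and the most abundant member of each role. For 1 member, single values are not reported here, though it is included in counts and medians over the 42. Other single values were picked after they were seen. Positions and promoter letters came from GRCm39 with GENCODE release 39, and protein sequence was not used here. Near-identical copies were genes with at least 95% identity over at least 50% of the transcript. Alternatives were DESeq2 1.42.0, edgeR's likelihood ratio test, scaling by relative log expression, upper quartile or library size, dropping mitochondrially encoded and ribosomal RNA genes, no filter or a minimum of 10 reads throughout, a replicate block, stricter and looser thresholds, and each retina omitted in turn.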

Additional observations from a re-analysis of the deposited data

How the results depend on the processing

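The number of members called at the threshold of the study stayed at 0 under every scaling, filter, test and replicate block tried, was 5 without the fold limit, and ran from 0 to 8 when 1 retina was left out, the 8 arising without Sorbinil replicate 3. At unadjusted p under 0.05, where 1 member stood, there were 3 with library size only, 2 with no filter, 4 with DESeq2, 2 with the likelihood ratio test, 2 with the replicate block, and 0 (without DMSO replicate 1 or 3) to 18 (without Sorbinil replicate 3) with 1 retina left out. Apart from the fits without a Sorbinil retina, the share of all genes under each alternative is not given here. For negative changes and for intervals within 2-fold it is given under no alternative. Shifts in these counts, and in every count of members or other pathway genes below, are therefore not a result about the listed genes. The median log2 fold change of the members was −0.26 with library size only, where that of all genes was −0.11, and −0.16 to −0.13 with 1 retina left out. Members with both Sorbinil retinas above every DMSO retina numbered 0 with library size only. Negative changes numbered 30 to 38 over all alternatives, and intervals within 2-fold 21 (replicate block) to 39 (without Sorbinil replicate 1). The other pathway genes with p under 0.05, 5 in all, numbered 2 with the replicate block and 0 to 35 with 1 retina left out, and those called 0 to 14, the highest without Sorbinil replicate 3 and 1 without DMSO replicate 3. Of the 18 members given in full, 9 kept their direction in every alternative. Nfe2l2 was −0.094 with library size only and −0.030 with the replicate block. Gstp1 was −0.026 and Fth1 −0.0088 with library size only. With 1 retina left out, and the retina in brackets giving the turned sign, the ranges were −0.030 to 0.044 for Nfe2l2 (DMSO 2), −0.087 to 0.28 for Gclm (Sorbinil 3), −0.46 to 0.72 for Gpx4 (Sorbinil 1), −0.26 to 0.12 for Txn2 (Sorbinil 3), −0.036 to 0.036 for Sod2 (Sorbinil 3 and DMSO 3), −0.87 to 0.011 for Mt1 (Sorbinil 1), −0.19 to 0.36 for Gstp1 (Sorbinil 1), −0.10 to 0.39 for Mgst3 (Sorbinil 1) and −0.029 to 0.24 for Fth1 (Sorbinil 1 and DMSO 1). Causes were not tested. Whether the numbers 1 and 3 pair the retinas was not settled. Deviations of same-numbered retinas correlated at −0.24 and −0.12 across genes. With 2 Sorbinil retinas the deviations from their mean mirror each other, so these correlations cannot decide it. On the second principal component DMSO replicate 3 scored −25.3 and Sorbinil replicate 3 −22.4, against 4.86 to 22.3 in the other retinas. With 2 Sorbinil retinas the median half-width of a member's 95% interval was 0.46 on the log2 scale, so smaller changes were mostly not detectable.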

Other observations

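The other marker lists are given as values. Summed levels in DMSO replicates 1 to 3 and then Sorbinil replicates 1 and 3 were 106.7, 103.5, 79.6, 33.7 and 94.0 CPM for 4 astrocyte markers. Pericyte markers (6 genes) had medians of −1.53 and 0.04 on the log2 scale in the Sorbinil retinas. Pigment epithelium markers (6 genes) had −0.91 and −0.11, against a DMSO mean that DMSO replicate 3 raised. The pigment epithelium markers summed to 100.3, 90.1 and 236.4 CPM in the DMSO retinas and to 78.2 and 132.1 CPM in the Sorbinil retinas. Lens markers (6 genes) summed to 44.8 CPM in DMSO replicate 3 and 27.6 in Sorbinil replicate 3 against 1.00 to 2.36 in the other retinas. Fibroblast markers (4 tested, Lum not) had medians of −1.82 and 1.66, erythrocyte markers (3 tested, Hba-a1 and Hbb-bt not) −0.63 and 0.62, and oligodendrocyte markers (3 tested, Mog listed at 0) −0.19 and 0.17.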
